A study of Mus musculus with 6 samples.

Results

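Pericytes, vascular smooth muscle cells and myofibroblasts are described here through 10 genes that mark them in mouse tumors: Acta2, Tagln, Myh11, Cnn1 and Mylk of the contractile apparatus, and Rgs5, Cspg4, Notch3, Pdgfrb and Abcc9 of pericytes. The genes were chosen by name, and all 10 had a row among the 23508 genes of the count table and passed the filter on low counts that left 16755 tested genes. RNA was sequenced from 6 tumors of 4T1, a mouse mammary carcinoma line that models the triple-negative form of breast cancer. Neural activity was recorded in such tumors, with 3 taken before its first peak and 3 when that peak occurred, on its day. The labels used here name no treatment or genotype, and give no host strain, age or sex. Nor do they give the days of collection, so that tumor age and the peak cannot be told apart. Whether each tumor came from its own animal is not stated either, and the p-values therefore reflect only how these samples vary, which may be technical.

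Pericytes and smooth muscle cells, together called mural cells, wrap the endothelium of vessels. Pericytes sit on capillaries and are recruited by PDGF-B from endothelial cells through the receptor PDGFR-beta, while smooth muscle cells ring arteries and veins, contract through smooth muscle actin and myosin, and respond to sympathetic nerves. Myofibroblasts are fibroblasts of wounds and tumors that take up part of the same contractile program, so that Acta2 and Tagln mark them as well as mural cells. Transcription of the contractile genes is driven by serum response factor (SRF), which binds DNA elements called CArG boxes together with myocardin or its relatives.

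In these tumors none of the 10 genes passed the test between the groups. By the edgeR quasi-likelihood test with Benjamini-Hochberg adjustment 0 of 10 were called at an adjusted p under 0.05, as were 0% of all 16755 genes. At an unadjusted p under 0.05 there were 0 of 10, against 9.5% of all genes (6.12% higher and 3.38% lower with the peak), and DESeq2, run on all genes with a count, called 0 of 10, against 1.51% of the genes to which it gave an adjusted p. The median log2 fold change (with peak over before peak, called the log2 ratio from here on) was 0.04 over the 10 genes and -0.02 over all genes tested, and 6 of the 10 were positive, against 47.7% of all genes. What the 10 genes showed instead was a difference between single tumors, with replicate 2 of the with-peak group high for most of them.

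Library depth was 10591067 to 14549357 counts per tumor. A gene's level is given in CPM, its count scaled to library size, with library sizes adjusted by the trimmed mean of M values (TMM). Values of 3 tumors are listed for replicates 1, 2 and 3 in that order. The carcinoma genes Epcam and Krt8 were present in every tumor, at 194 to 399 CPM and 1059 to 1716 CPM. The libraries differed in markers of other tissue. The summed level of 20 skeletal muscle markers was 1966 and 1917 CPM in with-peak replicates 2 and 3 and between 138.5 and 473.5 CPM in the other 4 tumors. Of the 9 red cell genes, the sum was 1496 and 2190 CPM in those same 2 tumors. It was 292 CPM in with-peak replicate 1 and 149.5 to 268.9 CPM in the before-peak tumors, so the groups did not overlap. Taken singly, 5 of the 7 tested red cell genes had groups that did not overlap, against 15.5% of all genes tested, a difference that was not tested.

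Acta2 encodes smooth muscle alpha-actin, the actin of the contractile filament in mural cells and myofibroblasts (chromosome 19, 34241090 to 34255590, minus strand, GRCm38). It was at 103, 143 and 139.7 CPM in the before-peak tumors and at 110.1, 170.3 and 94.3 CPM in the with-peak tumors. The highest and the lowest of the 6 tumors were thus both in the with-peak group, which spanned the whole before-peak range. The group means were 128.5 ± 22.0 and 124.9 ± 40.1 CPM (SD, n = 3). The log2 ratio was -0.04 (SE 0.23, 95% interval -0.58 to 0.50, edgeR adjusted p = 0.972). Tumor tissue is a mixture, and fewer cells of a type and less RNA per cell cannot be told apart in such bulk samples.

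Acta2 is a textbook target of SRF, and its promoter is shown for that reason. RefSeq promoter windows (GRCm38.p6, 250 bases before to 50 after the annotated start) were found for 7 of the 10 genes: Acta2, Cnn1, Mylk, Rgs5, Cspg4, Notch3 and Abcc9, and not for Tagln, Myh11 and Pdgfrb. Searched on both strands, a perfect CArG box was in 0 of these 7 windows and in 1.63% of all 32851 windows. With 1 G or C allowed in the A/T core of the element, 1 of the 7 held a match, Acta2, against 9.98% of all windows. Acta2 held 2 such elements, from -84 to -75 and from -34 to -25 relative to the annotated start. They are printed here in capitals, each with its flanks, read along the gene's strand. GENCODE also has a longer first exon of Acta2 that spans both. A match describes the letters only, and binding was not measured in these tumors. Of 2 other motifs, CATTCC, bound by TEAD factors, was in 3 of the 7 windows (Abcc9, Mylk and Acta2; 14.7% of all windows). TGGGAA, bound by the Notch factor RBPJ, was in 2 (Abcc9 and Acta2; 25.6%), and its Acta2 match, from -27 to -22, overlaps the second element printed here.
Acta2 element at chr19:34255438-34255467: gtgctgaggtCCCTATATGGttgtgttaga
Acta2 element at chr19:34255388-34255417: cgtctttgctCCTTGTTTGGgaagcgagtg

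Tagln encodes transgelin (SM22-alpha), an actin-binding protein of smooth muscle (chromosome 9, 45929619 to 45936058). Its levels were 126, 157 and 162 CPM in the before-peak tumors, and 198, 211 and 129 CPM in the with-peak tumors. With-peak replicates 1 and 2 lay above all 3 before-peak tumors, but replicate 3 lay near the lowest of them, and the groups overlapped. Its log2 ratio was 0.27 (SE 0.19, 95% interval -0.16 to 0.70, edgeR adjusted p = 0.703). Tagln shares 1241 of its 1988 exon bases with the antisense gene Gm48529. The libraries carry no strand, so reads of these genes cannot be told apart, and the counts given to Gm48529, 1454 to 2682 per tumor, were close to those given to Tagln, 1327 to 2818.

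Myh11 encodes the smooth muscle myosin heavy chain, which is held to be the most restricted marker of differentiated smooth muscle (chromosome 16, 14194535 to 14291372). It was at 9.63, 7.91 and 16.5 CPM in the before-peak tumors and at 8.28, 15.6 and 9.22 CPM in the with-peak tumors. In each group 1 tumor was high, replicate 3 before the peak and replicate 2 with it, and the others were lower. The log2 ratio was -0.04 (SE 0.34, 95% interval -0.81 to 0.73, edgeR adjusted p = 0.980).

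Cnn1 encodes calponin 1, which binds actin and restrains the myosin ATPase (chromosome 9, 22099216 to 22109630). It was at 8.35, 7.75 and 7.83 CPM in the before-peak tumors and at 11.1, 9.79 and 8.54 CPM in the with-peak tumors. Each with-peak tumor was above each before-peak tumor, and Cnn1 was the 1 gene of the 10 for which the groups did not overlap, against 15.5% of all genes tested. That share of the 10 is no higher than that background. Cnn1 also varied least, with 1.43 times between its highest and lowest tumor, and its log2 ratio of 0.30 (SE 0.22, 95% interval -0.20 to 0.80) did not pass (edgeR adjusted p = 0.719). It rests on 88 to 158 counts per tumor.

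Mylk encodes myosin light chain kinase, the calcium-dependent enzyme that starts smooth muscle contraction (chromosome 16, 34745210 to 35002420). Its levels were 13.6, 17.1 and 24.0 CPM in the before-peak tumors and 16.4, 30.6 and 15.4 CPM in the with-peak tumors. With-peak replicate 2 was highest and before-peak replicate 1 lowest, and the other with-peak tumors lay within the before-peak range. For Mylk the log2 ratio was 0.19 (SE 0.31, 95% interval -0.52 to 0.90, edgeR adjusted p = 0.881).

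**Figure D1:**
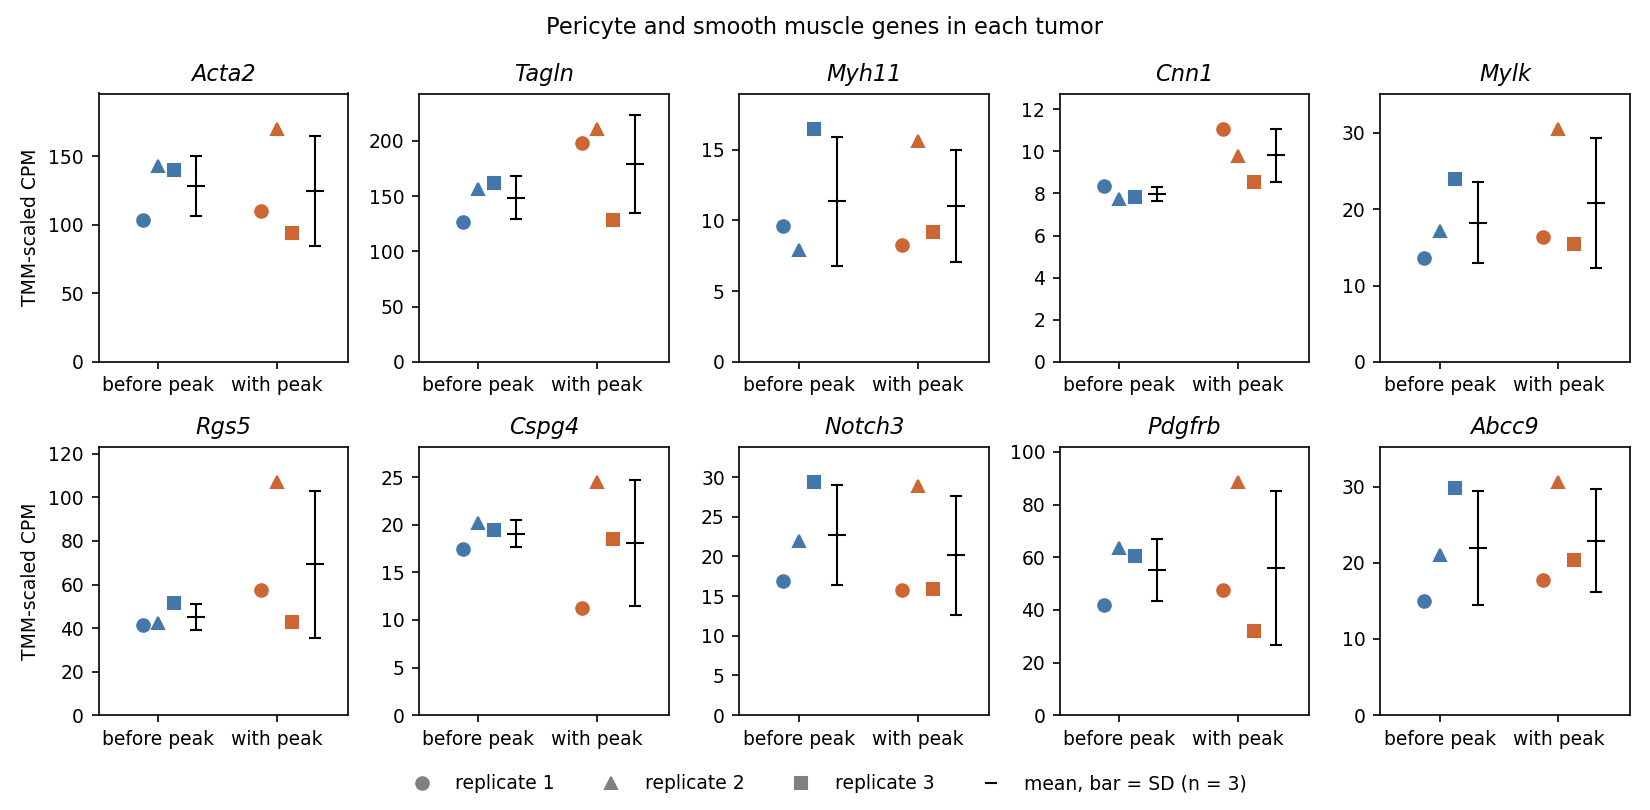
TMM-scaled CPM (vertical axes, linear from 0) of the 10 genes in 3 before-peak (blue) and 3 with-peak (orange) tumors, with symbols for replicates 1 to 3 and black bars for mean ± SD (n = 3). With-peak replicate 2, the orange triangle, is the highest tumor for 7 of the 10 genes, and the groups overlap for every gene but Cnn1.

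Rgs5 encodes a regulator of G protein signaling that is a defining pericyte transcript (chromosome 1, 169655501 to 169695813). It was at 41.3, 42.2 and 51.7 CPM in the before-peak tumors and at 57.5, 107 and 43.0 CPM in the with-peak tumors. With-peak replicate 2 was at 1.87 times the next tumor, with-peak replicate 1, while with-peak replicate 3 was at the level of the lower before-peak tumors. The group means were 45.1 ± 5.78 and 69.2 ± 33.7 CPM (SD, n = 3). Rgs5 had the largest log2 ratio of the 10 genes, 0.62 (SE 0.33, 95% interval -0.18 to 1.42, edgeR adjusted p = 0.629), and without with-peak replicate 2 it was 0.15. The 250 bases before its annotated start (GRCm38.p6, chr1:169655251-169655500, plus strand) are printed for contrast with Acta2, since they hold no CArG box or CArG-like element.
Rgs5 promoter: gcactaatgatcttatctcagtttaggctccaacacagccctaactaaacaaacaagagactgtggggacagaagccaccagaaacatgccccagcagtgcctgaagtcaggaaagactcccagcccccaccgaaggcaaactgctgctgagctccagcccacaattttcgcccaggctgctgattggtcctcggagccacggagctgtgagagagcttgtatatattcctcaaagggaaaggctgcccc

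Pdgfrb encodes PDGFR-beta, the receptor by which pericytes are recruited to vessels and which fibroblasts also carry (chromosome 18, 61045150 to 61085061). Its levels were 41.7, 63.5 and 60.4 CPM in the before-peak tumors and 47.4, 88.7 and 32.0 CPM in the with-peak tumors. The with-peak group held both the highest and the lowest tumor, 2.77 times apart, the widest span of the 10 genes. Its log2 ratio was 0.02 (SE 0.39, 95% interval -0.92 to 0.96, edgeR adjusted p = 0.992), an interval that leaves room for a change of nearly 1 on the log2 scale either way.

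Notch3 encodes the Notch receptor of mural cells (chromosome 17, 32120820 to 32166852). It was at 16.9, 21.9 and 29.4 CPM in the before-peak tumors and at 15.7, 28.8 and 15.9 CPM in the with-peak tumors. With-peak replicates 1 and 3 lay just under the lowest before-peak tumor and replicate 2 near the highest. For Notch3 the log2 ratio was -0.17 (SE 0.29, 95% interval -0.84 to 0.49, edgeR adjusted p = 0.883), the lowest of the 10.

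Cspg4 encodes NG2, a membrane proteoglycan of pericytes that glial precursors also make (chromosome 9, 56865033 to 56899870). It was at 17.5, 20.2 and 19.5 CPM in the before-peak tumors and at 11.3, 24.5 and 18.5 CPM in the with-peak tumors. The before-peak tumors were close together, and with-peak replicates 1 and 2 lay below and above all of them. For Cspg4 the log2 ratio was -0.08 (SE 0.26, 95% interval -0.66 to 0.51, edgeR adjusted p = 0.947).

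Abcc9 encodes SUR2, the regulatory subunit of the ATP-sensitive potassium channel of pericytes and smooth muscle (chromosome 6, 142587862 to 142702315). It was at 14.9, 21.1 and 29.8 CPM in the before-peak tumors and at 17.8, 30.6 and 20.4 CPM in the with-peak tumors. As for Myh11, replicate 3 of the before-peak group and replicate 2 of the other were the high tumors. The log2 ratio was 0.06 (SE 0.29, 95% interval -0.60 to 0.72, edgeR adjusted p = 0.960). Kcnj8, the pore subunit of the same channel, was at 9.47, 9.08 and 11.2 CPM in the before-peak tumors, and 9.54, 20.4 and 8.44 CPM in those with the peak, again with with-peak replicate 2 highest, and had a log2 ratio of 0.37 (SE 0.34, edgeR adjusted p = 0.769).

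**Figure D2:**
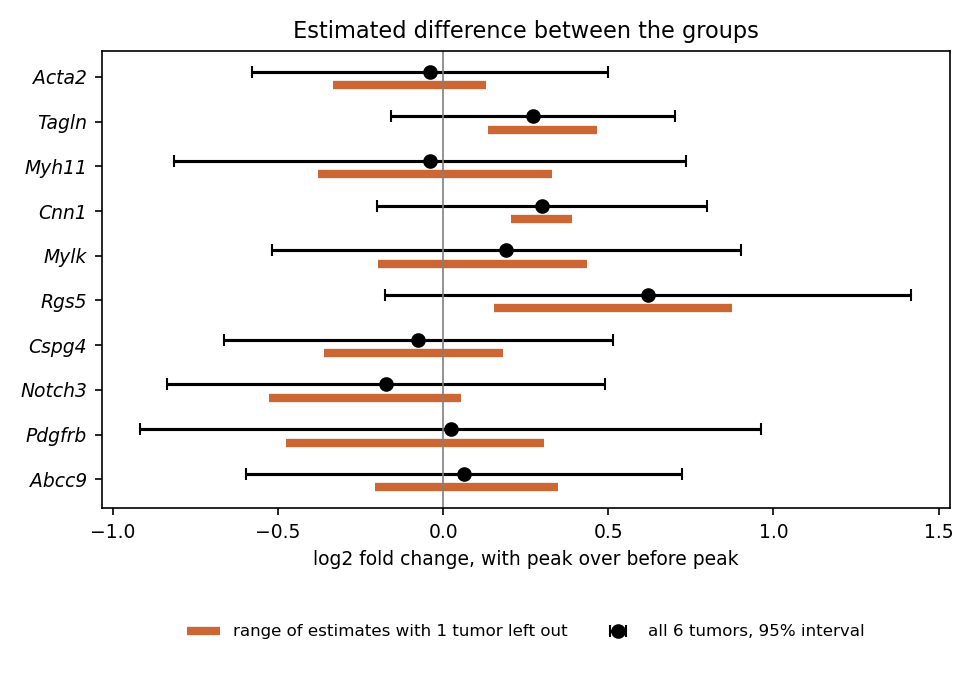
Log2 ratio (log2 fold change) of each gene, with peak over before peak, with its 95% interval from edgeR (black) and the range of the estimate when each of the 6 tumors is left out in turn (orange). Every black interval spans 0, and the orange range lies wholly above 0 for Tagln, Cnn1 and Rgs5.

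Without with-peak replicate 2, 3 of the 10 log2 ratios were positive, Tagln, Cnn1 and Rgs5, and the median over the 10 was -0.27, against -0.02 over all genes in that fit. That tumor was the highest with-peak tumor for 9 of the 10 genes, so leaving it out lowers their estimates by construction. The same holds for the lists below in which it was mostly highest. Without with-peak replicate 3, 8 of 10 were positive and the median was 0.225, against 48.7% and -0.01 over all genes in that fit. The sign of 5 of the 10 estimates differed between these fits, and 0 of the 10 genes passed in either fit.

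Per kilobase of annotated exon, Tagln was the most abundant transcript of the 10, at 82.4 ± 17.5 CPM per kb (SD, n = 6 tumors). Acta2 followed at 57.7 ± 13.2 CPM per kb. Tagln was above Acta2 in all 6 tumors, though the ranges over tumors overlapped and its reads cannot be told apart from those of the antisense gene. Rgs5 was at 12.6 ± 5.58 and Pdgfrb at 10.2 ± 3.65 CPM per kb, with overlapping ranges. The other 6 genes lay lower, from Cnn1 at 3.25 ± 0.48 CPM per kb through Abcc9 at 2.68 ± 0.77, Notch3 at 2.65 ± 0.79, Mylk at 1.73 ± 0.57 and Cspg4 at 1.56 ± 0.36 to Myh11 at 1.47 ± 0.50. Neighbours among these 6 overlapped in range. Steps without overlap stood between Acta2 and Rgs5 and between Pdgfrb and Cnn1. The smooth muscle myosin Myh11 stood last in length-scaled level, though Cspg4 was above it in only 4 of the 6 tumors. The actin and transgelin that myofibroblasts share stood first. This is an order of transcripts, and what it says of cell types was not tested. Exon lengths are those of all annotated isoforms merged, which lowers the length-scaled level of a gene such as Mylk whose isoforms use different exons.

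Read across tumors, with-peak replicate 2 was highest for 7 of the 10 genes and among the top 2 for all 10. Over all genes tested it was highest for 21.3% and among the top 2 for 36.5%. Its level was above that of both other with-peak tumors for 9 of the 10 genes, against 35.2% of all genes, with Cnn1 as the exception. Relative to the mean of with-peak replicates 1 and 3, its level was 2.23 times for Pdgfrb, 2.13 times for Rgs5 and 1.92 times for Mylk, while Tagln was 1.29 times and Cnn1 1.00 times that mean. At the other end, before-peak replicate 1 was among the 2 lowest tumors for 7 genes and with-peak replicate 3 for 5. This pattern was noticed in these data and is a description of single tumors.

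**Figure D3:**
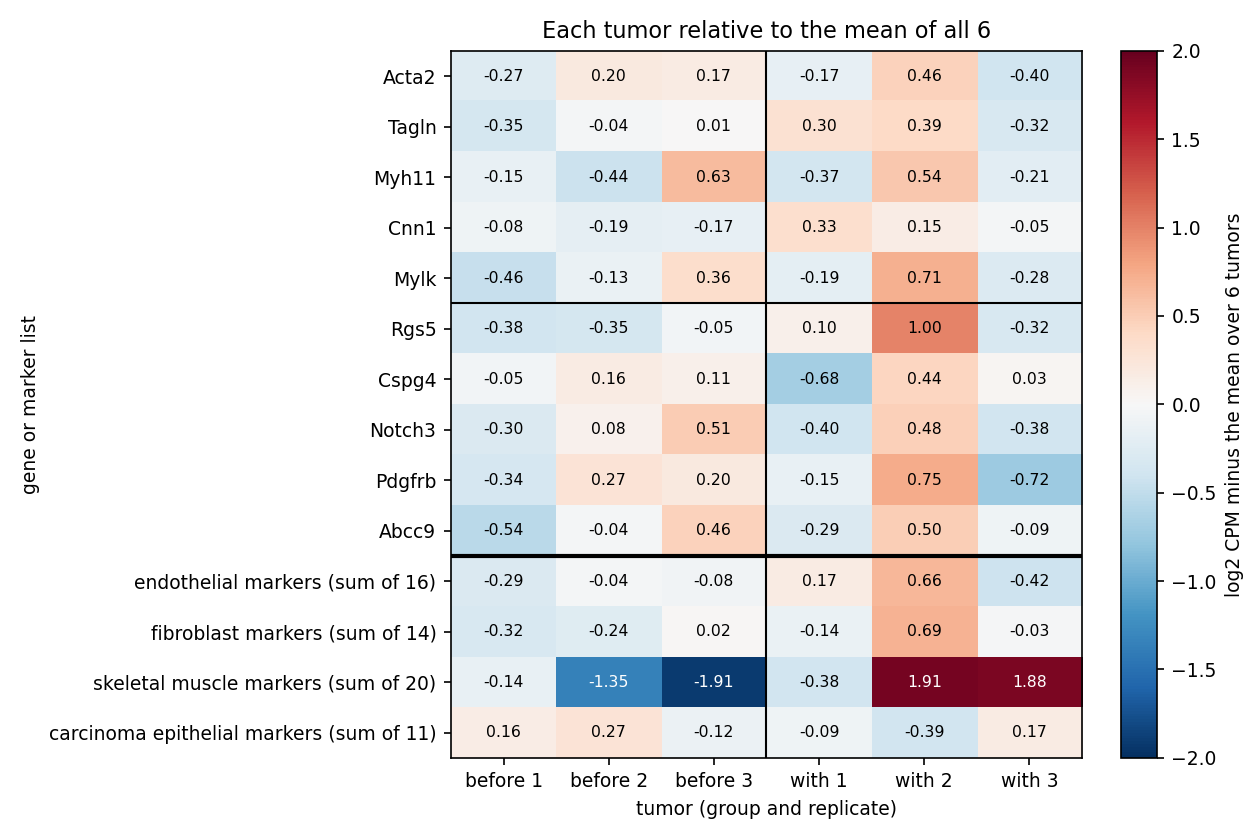
Log2 CPM of each gene in each tumor minus its mean over the 6 tumors, with contractile genes on top, pericyte genes below them and the summed levels of 4 marker lists at the bottom (red higher, blue lower, value printed in each cell). With-peak replicate 2 is above the mean for all 10 genes and for the endothelial and fibroblast sums. With-peak replicate 3 is below the mean for 9 of the 10 genes. The skeletal muscle sum is high in both tumors, and the part of muscle RNA in the 10 genes was not tested.

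Markers of vessel and stroma were high in the same tumor. All 16 endothelial markers and all 14 fibroblast markers were highest in with-peak replicate 2. The endothelial sum was 605, 723 and 704 CPM in the before-peak tumors and 832, 1169 and 556 CPM in the with-peak tumors. The fibroblast sum was 1936 to 2450 CPM in the before-peak tumors, and 2195, 3906 and 2371 CPM in those with the peak. The sum of 11 carcinoma epithelial markers was lowest in that tumor, at 3179 CPM, against 3820 to 5024 CPM in the other 5. No endothelial or fibroblast marker was at 0 in any tumor. The part of these cell types in the levels of the 10 genes was not tested.

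Relative to the endothelial markers, neither set of genes separated the groups. The 5 pericyte genes summed to 132, 169 and 191 CPM in the before-peak tumors and to 149.7, 279.9 and 129.8 CPM in the with-peak tumors. Divided by the endothelial sum, this gave 0.219, 0.234 and 0.271 before the peak and 0.18, 0.239 and 0.233 with it. The group means of that ratio were 0.241 ± 0.027 and 0.218 ± 0.033 (SD, n = 3), and the groups overlapped. For the 5 contractile genes, whose sum is mostly Acta2 and Tagln, the ratio was 0.432, 0.460 and 0.497 before the peak and 0.413, 0.374 and 0.461 with it, also overlapping. With-peak replicate 2, the tumor with the highest sums, had the lowest contractile ratio and a pericyte ratio within the range of the others.

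**Figure D4:**
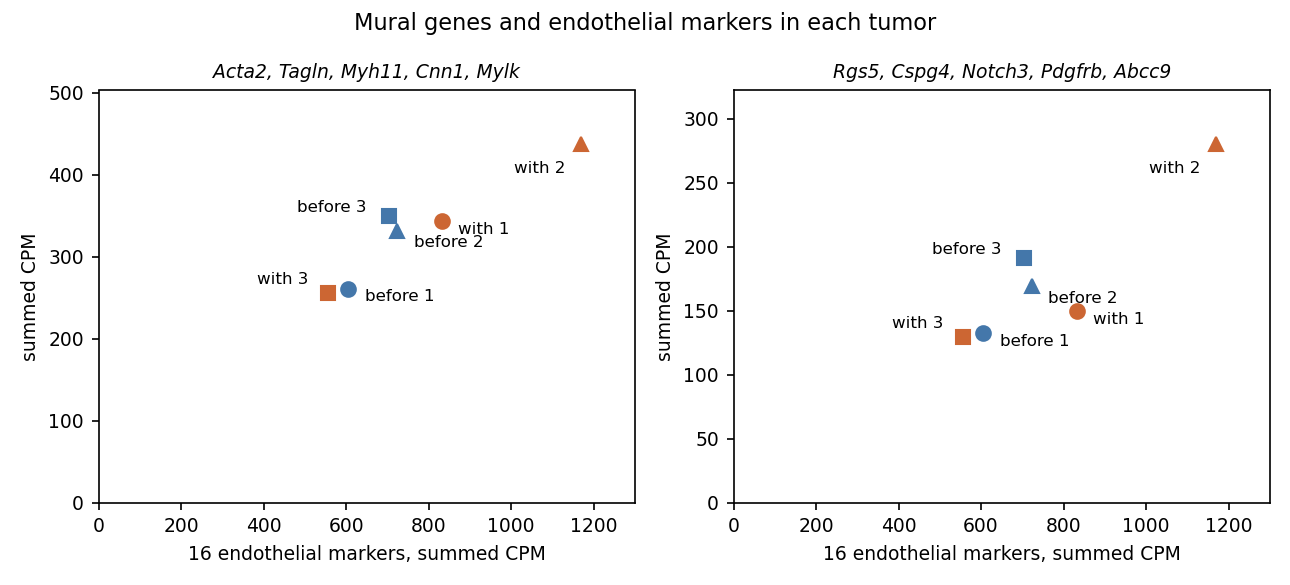
Summed CPM of the 5 contractile genes (left) and the 5 pericyte genes (right) against the summed CPM of 16 endothelial markers, 1 point per tumor (blue before peak, orange with peak), with all axes from 0. With-peak replicate 2 is highest on every axis, at 1169 CPM of endothelial markers, and with-peak replicate 3 lowest, at 556 CPM.

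A ratio of genes within a tumor does not depend on how libraries are scaled. Among the 45 ratios between the 10 genes, 6 had groups that did not overlap, against 15.2% of the ratios between all tested genes, so the count is near the background and is no result about these genes. Of these 6, 3 involved Rgs5, whose ratios to the remaining genes overlapped between groups. The others were Acta2 to Tagln, Mylk to Notch3 and Notch3 to Abcc9. Rgs5 relative to Pdgfrb was 0.990, 0.665 and 0.857 in the before-peak tumors and 1.21, 1.21 and 1.34 in the with-peak tumors. Rgs5 relative to Acta2 and to Notch3 was likewise higher in each with-peak tumor.

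Other genes of the contractile program did not pass either. Of 28 listed genes 27 were tested, and edgeR called 0 at an adjusted p under 0.05. At an unadjusted p under 0.05, 4 were higher and 3 lower, and DESeq2 called 3, Tpm2, Csrp2 and Fhl1. For this and the following lists, the shares over all genes were 6.12% higher and 3.38% lower at that threshold. DESeq2 called 1.51% of the genes to which it gave an adjusted p. The contractile list lay above these shares, which was not tested, and it was chosen with earlier results of these data known. The median log2 ratio of the 27 genes was 0.08. Csrp2, a LIM protein of smooth muscle and other cells, was at 44.2 ± 4.79 CPM in the before-peak group and 73.6 ± 11.4 CPM in the with-peak group (SD, n = 3; log2 ratio 0.74, SE 0.15, edgeR adjusted p = 0.153), with no overlap between groups. Tpm2, a tropomyosin that smooth and skeletal muscle share, was at 37.6, 37.9 and 33.8 CPM in the before-peak tumors, and 47.6, 124 and 97.8 CPM in those with the peak, highest in the 2 tumors high in skeletal muscle markers (edgeR adjusted p = 0.345). Fhl1 was likewise highest in those 2 tumors, at 12.7, 7.6 and 12.1 CPM before the peak and 13.2, 48.1 and 31.9 CPM with it. Myl9, the regulatory light chain of smooth muscle myosin, was at 18.3 to 19.3 CPM in the before-peak tumors, and at 20.1, 40.5 and 14.1 CPM in those with the peak, the same order over with-peak tumors as Rgs5 and Pdgfrb. Flna, the filamin that links actin to the membrane and the most abundant gene of this list, was at 1119 ± 73.1 and 947 ± 55.0 CPM (log2 ratio -0.24, SE 0.11, edgeR adjusted p = 0.522).

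Of 14 listed genes for SRF, its cofactors and other regulators of the contractile program, 13 were tested and 0 passed by edgeR, with 1 higher and 1 lower at an unadjusted p under 0.05 and a median log2 ratio of -0.15. Klf4, a factor that represses smooth muscle genes and that many other cell types express, was at 30.7 ± 2.36 and 52.3 ± 4.30 CPM (log2 ratio 0.77, SE 0.13, edgeR adjusted p = 0.0976), and DESeq2 called it. Mrtfa, the actin-sensing cofactor of SRF, was at 60.2 ± 3.89 and 50.03 ± 1.91 CPM (log2 ratio -0.27, SE 0.11, edgeR adjusted p = 0.512). Myocd, the smooth muscle cofactor myocardin, was hardly detected. It had 1, 8 and 2 counts in the before-peak tumors and 0 in each with-peak tumor, where a count of 0 allows up to 0.21 to 0.291 CPM, counting error alone.

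Among other pericyte genes, 26 of 28 listed were tested, 20 of them with a log2 ratio above 0, and the median was 0.31. By edgeR 0 passed, with 5 higher and 0 lower at an unadjusted p under 0.05, against 6.12% and 3.38% of all genes. DESeq2 called 3, Des, Ndufa4l2 and Ednrb, against 1.51% of all genes to which it gave an adjusted p. With-peak replicate 2 was highest for 20 of the 26, and without it 15 were positive and the median was 0.08. Des, the intermediate filament desmin of pericytes and of all muscle, was at 8.909, 5.402 and 9.499 CPM in the before-peak tumors, and 37.0, 149.9 and 142.9 CPM in those with the peak (log2 ratio 3.79, SE 0.64, edgeR adjusted p = 0.219), highest in the 2 tumors with high skeletal muscle markers. With-peak replicate 1 was also above every before-peak tumor for Des. Its skeletal muscle sum was 400 CPM, within the before-peak range of 138.5 to 473.5 CPM. Taken singly, though, 7 of the 20 muscle markers had groups that did not overlap, against 15.5% of all genes tested. Acta1 was 1 of these, at 79.6 CPM in with-peak replicate 1 and at most 52.25 CPM before the peak. Ednrb was likewise highest in those 2 tumors, at 45.8, 136 and 103 CPM with the peak and 27.25 to 50.2 CPM before it. The part of muscle RNA in Des and in Ednrb was not tested. Ndufa4l2, a hypoxia-induced mitochondrial protein that is abundant in pericytes, was at 8.75, 9.55 and 13.8 CPM in the before-peak tumors, and 20.2, 27.4 and 19.5 CPM in those with the peak (log2 ratio 1.06, SE 0.24, edgeR adjusted p = 0.197). Mcam, a surface adhesion molecule of mural cells and endothelium, was at 105.5 ± 7.57 and 94.2 ± 39.2 CPM (edgeR adjusted p = 0.887).

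None of the tested ligands and partners of the receptors passed. Of 5 PDGF genes 0 passed by edgeR, with 1 higher at an unadjusted p under 0.05 and a median log2 ratio of 0.27. Pdgfb, the ligand of PDGFR-beta, was at 53.0, 79.6 and 55.6 CPM in the before-peak tumors, and 61.5, 68.2 and 42.8 CPM in those with the peak (log2 ratio -0.12, SE 0.21, edgeR adjusted p = 0.884). Pdgfra, the receptor of fibroblasts, was at 69.6 ± 17.4 and 102.7 ± 13.4 CPM (log2 ratio 0.56, SE 0.18, edgeR adjusted p = 0.397). Pdgfd, another ligand of PDGFR-beta, was at 3.29 ± 0.55 and 5.52 ± 3.64 CPM (edgeR adjusted p = 0.654). Of 14 tested genes of Notch signaling 0 passed by edgeR, 0 had an unadjusted p under 0.05, 4 were positive and the median log2 ratio was -0.21. Jag1, the ligand that maintains Notch3 in smooth muscle, was at 53.8, 102.6 and 72.6 CPM in the before-peak tumors, and 47.4, 66.4 and 53.8 CPM in those with the peak (log2 ratio -0.45, SE 0.24, edgeR adjusted p = 0.613). Heyl, a Notch target in mural cells, was at 8.91, 10.1 and 11.9 CPM in the before-peak tumors, and 4.63, 12.1 and 3.88 CPM in those with the peak, low in the with-peak tumors in which Notch3 was low (log2 ratio -0.58, SE 0.42, edgeR adjusted p = 0.711). It was not as low in before-peak replicate 1, where Notch3 was at 16.9 CPM. Hey1, another Notch target, had a log2 ratio of 0.33 (SE 0.39, edgeR adjusted p = 0.820). Dll4, the Notch ligand of tip cells, and Rbpj, the DNA-binding factor of the pathway, had log2 ratios of -0.47 and -0.14 (edgeR adjusted p = 0.629 and 0.802).

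The matrix genes of myofibroblasts gave 0 of 27 by edgeR, with 2 higher at an unadjusted p under 0.05, 18 positive and a median log2 ratio of 0.22. With-peak replicate 2 was highest for 17 of them, and without it the median was 0.03. Bgn, the proteoglycan biglycan, was at 328, 437 and 498 CPM in the before-peak tumors, and 607, 896 and 467 CPM in those with the peak (log2 ratio 0.64, SE 0.26, edgeR adjusted p = 0.512). Sparc, a collagen-binding matrix protein, was at 1563 ± 210.1 and 2347 ± 857 CPM (log2 ratio 0.59, SE 0.24, edgeR adjusted p = 0.519). Fn1, fibronectin, was the most abundant of the list, at 6609 ± 439 and 5979 ± 379.5 CPM (edgeR adjusted p = 0.710).

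Myoepithelial cells of the mammary gland also express Acta2, Myh11 and Cnn1. Their 8 keratin and other markers summed to 119.2 to 125.4 CPM before the peak and 73.2 to 101.3 CPM with it, so the groups did not overlap. Most of that sum was Krt14, at 86.5, 75.95 and 69.9 CPM in the before-peak tumors and 49.45, 64.55 and 68.7 CPM in the with-peak tumors. Taken singly, 4 of the 8 genes had groups that did not overlap, against 15.5% of all genes tested, and 2 of the 8 had a log2 ratio above 0. That difference from all genes was not tested, and this list too was chosen with earlier results of these data known. Krt5, the basal keratin of these cells, was at 10.1, 16.1 and 19.6 CPM in the before-peak tumors, and 3.16, 5.33 and 6.99 CPM in those with the peak (log2 ratio -1.57, SE 0.35, edgeR adjusted p = 0.198), a keratin that carcinoma cells can also express. By edgeR 0 of the 8 passed, with 0 higher and 3 lower at an unadjusted p under 0.05, and DESeq2 called 2, Krt5 and Krt15. The 9 Schwann cell genes, relevant since glia also make Cspg4, summed to 71.4 to 100.7 CPM before the peak and 75.1 to 95.7 CPM with it, and Gfap was at 0 in 4 of the 6 tumors. The part of either cell type in the 10 genes was not tested. Acta1, the skeletal muscle actin and a close paralog of Acta2, was at 52.2, 7.75 and 2.5 CPM in the before-peak tumors, and 79.6, 403.5 and 437 CPM in those with the peak. In the 2 tumors with the most Acta1, Acta2 was highest of all 6 tumors (replicate 2) and lowest of all 6 (replicate 3), and the part of muscle RNA in the Acta2 counts was not tested. Of 2146 windows of 50 bases in Acta2 transcripts, 7 also occurred in transcripts of other genes, Actg1 among them, and of the 100-base windows 0 did.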

How the data were processed

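Per the labels' protocols, tumors were frozen, RNA was isolated with Trizol and enriched by oligo(dT), and paired-end libraries that keep no strand were sequenced. The authors deposited raw counts per gene under Ensembl identifiers, whole numbers with no normalization, in 1 table with a column per tumor. The submitters' processing notes list FastQC, STAR and mm10. Versions, read counter, annotation and gene filters were not given in the sources used here. Of 23508 rows, 23479 matched GENCODE M21 (GRCm38, the assembly of mm10), which gave symbols, positions and merged exon lengths.

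Counts were tested with edgeR 4.0.16 in R 4.3.3: filterByExpr (minimum count 10, minimum total 15), TMM scaling, and the robust quasi-likelihood test (two-sided, no covariate) between the groups of 3 tumors, adjusted by Benjamini-Hochberg over 16755 genes at 0.05. The standard error (SE) of a log2 ratio is that ratio, without sign, over the square root of F. The script was tested on simulated data. Alternatives used other scalings and filters, DESeq2 1.42.0 (on all genes with a count and on the filtered genes), limma-voom (limma 3.58.1), the replicate number as a block, an adjusted p under 0.1 and fewer tumors. Total counts of 10591067 to 14549357 per tumor leave genes near 1 CPM with large counting error.

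The genes and lists were chosen with earlier results of these data known. Named beside the 10 genes are, from each list, the 2 genes with the smallest p-value and the most abundant one. Some of these are not printed. Kcnj8, Pdgfb, Heyl, Hey1, Myl9 and Myocd were named for their roles after their values were seen. Fhl1, Ednrb, Gfap and Hba-a2 were named beside a count, also after their values were seen. Besides Tagln, an opposite-strand gene overlaps exons of Abcc9, Mylk, Notch3, Alas2, C1s1, Dll4, Fn1, Krt5, Krt8, Mcam, Mrtfa, Ndufa4l2, Pdgfra and Ryr1, which leaves those counts uncertain.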

Additional observations from a re-analysis of the deposited data

How the results depend on the processing

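Under 19 alternatives 0 of the 10 genes were called, and the smallest adjusted p among the 190 values was 0.328, for Rgs5 with 2 against 2 tumors (without replicate 3 of each group). Tagln, Cnn1 and Rgs5 kept a positive log2 fold change under all 19. Sign turned in 24 of the 190 values, and the cause was not tested. The alternative with an adjusted p under 0.1 reused the fit reported above, so its 10 values repeat those estimates and could not turn sign. Pdgfrb was -0.033 with library size alone, -0.063 with limma-voom, -0.20 with sample weights and -0.071 with the replicate number as a block. With 2 against 2 tumors Acta2, Myh11 and Notch3 were at 0.19, 0.44 and 0.20. With 3 against 1 tumor (without with-peak replicates 2 and 3, the lone tumor assumed to vary like the others) Mylk, Pdgfrb and Abcc9 were at -0.16, -0.22 and -0.31.

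Leaving out 1 tumor gave ranges of -0.33 to 0.13 (Acta2), 0.13 to 0.46 (Tagln), -0.38 to 0.33 (Myh11), 0.21 to 0.39 (Cnn1), -0.20 to 0.44 (Mylk), 0.15 to 0.87 (Rgs5), -0.36 to 0.18 (Cspg4), -0.53 to 0.055 (Notch3), -0.48 to 0.31 (Pdgfrb) and -0.21 to 0.35 (Abcc9). The lower end came without with-peak replicate 2 for all but Cnn1, for which it came without with-peak replicate 1. Over all genes the calls went from 0 to 29 without a filter on low counts, 265 with DESeq2 on all 23503 genes with a count, 260 with DESeq2 on the 16755 filtered genes (an alternative chosen after seeing the data), 1 with the replicate block, 4 with 2 against 2 tumors, 35 at an adjusted p under 0.1, and 0 to 17 with 1 tumor left out: leaving out before-peak replicate 2 gave 17, before-peak replicate 3 gave 13 and with-peak replicate 1 gave 9. Over the related lists they went from 0 to 18 with DESeq2 on either set of genes, 1 with 2 against 2 tumors (C1s1), 1 at an adjusted p under 0.1 (Klf4) and 0 to 6 with 1 tumor left out (Tpm2, Des, Neb, Ryr1, Hba-a2 and Alas2, without with-peak replicate 1). The labels state no pairing by number, and deviations of same-numbered tumors correlated at -0.06, -0.10 and 0.03. With 3 tumors a group, the upper bounds of the 95% intervals ran from 0.49 (Notch3) to 1.42 (Rgs5) on the log2 scale. The lower bounds ran from -0.92 (Pdgfrb) to -0.16 (Tagln).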
